A study of Mus musculus with 6 samples.

Results

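Tshb, Thrb and Crym are 3 genes of the thyroid hormone axis, chosen by name from the 265 genes that a targeted single-cell assay measured in every one of 4 libraries. Tshb encodes the beta subunit of thyroid-stimulating hormone, which the pituitary secretes to drive the thyroid gland. Thrb encodes thyroid hormone receptor beta, a nuclear receptor that represses or activates its target genes depending on hormone, and through which thyroid hormone feeds back on the hypothalamus and pituitary. Crym encodes mu-crystallin, a cytosolic protein that binds triiodothyronine and that tanycytes, the glial cells lining the third ventricle, are known to express. In the pars tuberalis, the part of the pituitary that wraps the median eminence, thyrotrope cells are known to use thyroid-stimulating hormone to signal to neighbouring tanycytes.

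The cells came from hypothalami of mice of strain C57/Bl6 and genotype KLB-CRE; Ai14, a design in which Cre recombinase made from the beta-klotho gene switches on the red fluorescent protein tdTomato. The labels give every library as viable tdTomato-sorted cells, each capture pooled 3 hypothalami, and there was no group without the alleles, no treatment and no age in the labels used here. The recombined reporter stays on once Cre has acted, so tdTomato marks cells with past or present Cre. Each of 3 captures was read with 2 primer panels, and the larger gene set was analysed in panel 1 for replicate 1 alone, called the panel 1 library here, and in panel 2 for replicates 1, 2 and 3. A barcode, the assay's stand-in for a cell, was kept with at least 20 unique molecular identifiers (UMIs, each marking 1 captured RNA molecule) and 5 detected genes, which left 950 of 1555 barcodes of the panel 1 library and all 44, 43 and 87 barcodes of panel 2 replicates 1, 2 and 3.

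Depth differed widely between the libraries. The median barcode held 51 UMIs in the panel 1 library and 116 UMIs in panel 2 replicate 1, against 1352 and 1068 UMIs in panel 2 replicates 2 and 3, and the 4 libraries summed to 105772, 11423, 79560 and 109452 UMIs. No 2 of the 4 libraries shared a cell index among the analysed barcodes. The beta-klotho gene Klb itself had no UMI in any of the 4 libraries. The tdTomato transcript was in 281 of 950 barcodes of the panel 1 library, in 0 of 44, which allows a share of up to 6.82%, in 41 of 43 and in 86 of 87 barcodes of panel 2 replicates 1, 2 and 3. Its RNA thus goes against the sort in panel 2 replicate 1 and was found in only 29.6% of barcodes of the panel 1 library. The genes were not sorted into cell types, because most barcodes carried markers of many types at once: in the panel 1 library the median barcode had a marker from 7 of 11 cell type lists, and 98.6% of barcodes had markers from 3 or more. Fcer1g, a myeloid gene, and Bcas1, an oligodendrocyte gene, were both in every barcode of the 3 panel 2 libraries. No class of barcodes that should lack the 3 genes could therefore serve as a background, and the part of free RNA in the values below was not tested.

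Each gene was read by 1 amplicon at the reference end of 1 transcript, NM_001165939.1 for Tshb, NM_009380.3 for Thrb and NM_016669.1 for Crym, and the counts were not assigned to start sites. Amplicons differ in length and primers, and levels are therefore compared between libraries and not between genes. The 250 bases before the RefSeq start sites in assembly GRCm38.p6 are shown for Tshb and for both listed starts of Thrb, because the counts of the 1 Thrb amplicon were not divided between them. The transcript that names the amplicon, NM_009380.3, begins inside the downstream Thrb window in the GENCODE annotation, and the positions below count from the RefSeq start instead. In that annotation it ends at position 18038090, and a transcript of the upstream start ends at 18036559. Whether the amplicon lies past the latter end was not examined. Sequences run 5′ to 3′ on the gene's strand, and capitals mark the letters TATAAA, the TATA box, and AGGTCA, the nuclear receptor half-site to which thyroid hormone receptors bind, each searched on both strands.

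Tshb, chr3:102782715-102782964, minus strand: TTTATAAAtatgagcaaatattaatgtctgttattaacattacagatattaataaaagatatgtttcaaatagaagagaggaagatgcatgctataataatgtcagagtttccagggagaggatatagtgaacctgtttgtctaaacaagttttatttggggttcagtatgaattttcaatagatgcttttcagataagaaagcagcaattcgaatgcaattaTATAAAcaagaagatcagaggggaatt

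Thrb upstream start, chr14:17660710-17660959, plus strand: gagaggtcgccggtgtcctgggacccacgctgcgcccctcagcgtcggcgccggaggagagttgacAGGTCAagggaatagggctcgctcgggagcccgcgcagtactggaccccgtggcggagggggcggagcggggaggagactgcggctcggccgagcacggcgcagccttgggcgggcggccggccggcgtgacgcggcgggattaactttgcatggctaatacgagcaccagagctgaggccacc

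Thrb downstream start, chr14:17981394-17981643, plus strand: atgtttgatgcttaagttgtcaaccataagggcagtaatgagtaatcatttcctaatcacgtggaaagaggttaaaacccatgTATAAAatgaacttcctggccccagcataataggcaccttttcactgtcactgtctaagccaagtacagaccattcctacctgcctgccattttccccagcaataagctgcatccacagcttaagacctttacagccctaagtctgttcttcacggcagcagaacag

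The Tshb window held TATAAA 27 bases before the start and again at its far end, 248 bases before the start, where it overlaps a copy on the opposite strand. The upstream Thrb window held no TATAAA and 1 AGGTCA, 184 bases before its start, and its GC content was 71.6%. The downstream Thrb window held TATAAA 167 bases before its start, with a GC content of 44.0%, against 29.6% in the Tshb window and a median of 52.4% over all windows. Of 32851 RefSeq promoter windows of the same length, 12.4% held TATAAA and 14.0% held AGGTCA. These matches describe the letters of the windows only.

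The 3 genes were detected in different libraries. All 3 were found together only in the panel 1 library, and panel 2 replicate 1, made from the same capture, had none of them. The tables of these 2 libraries share 0 cell indices, so they do not show the same cells under both panels. In panel 2 replicate 2, Tshb was in nearly every barcode while Thrb was not detected and Crym was at 2 UMIs. In panel 2 replicate 3, Thrb was detected and Tshb and Crym were not. Of all 265 genes, 215, 172 and 146 had no UMI in panel 2 replicates 1, 2 and 3, so absence was common there. Each library is 1 pool of cells, so these differences have no replicate check, and all intervals below are 95% intervals that cover counting error only.

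Tshb, the hormone subunit, was in 115 of 950 barcodes of the panel 1 library (12.1%, Clopper-Pearson interval 10.1 to 14.4%). It was in 41 of 43 barcodes of panel 2 replicate 2 (95.3%, interval 84.2 to 99.4%). Panel 2 replicates 1 and 3 had it in 0 of 44 and 0 of 87 barcodes, which allows shares of up to 6.82% and 3.45%, as limits on barcodes with a UMI and not on cells with the gene. The 3 panel 2 captures thus ranged over nearly the whole scale, with a mean of 31.8% ± 55.0 (SD, n = 3), and the spread between captures was larger than the mean. With barcodes thinned to 35 UMIs, by the exact expectation over all draws, the share was 13.1% in panel 2 replicate 2 and 5.54% in the panel 1 library, and the panel 2 mean was 4.37% ± 7.58 (SD, n = 3). As a level, Tshb made up 1.96 of every 1000 UMIs in the panel 1 library (207 UMIs, exact Poisson interval 1.70 to 2.24) and 4.64 of every 1000 in panel 2 replicate 2 (369 UMIs, interval 4.18 to 5.14). The panel 1 library stood at 0.422 times the level of panel 2 replicate 2 (counting interval 0.354 to 0.502).

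The libraries without Tshb were set beside the number of Tshb UMIs that their total UMIs would give at these levels. Panel 2 replicate 3 had slightly more UMIs in all than the panel 1 library, and at that library's Tshb level it would have held 214 Tshb UMIs. It held 0, so Tshb was at least 71.4-fold higher in the panel 1 library, with 3 UMIs taken as the limit for the whole library. Tshb was 1 of 146 genes, of 265, with no UMI in panel 2 replicate 3. Panel 2 replicate 1, the library with the fewest UMIs in all, would have held 22.4 Tshb UMIs at the level of the other panel of its capture. It held 0, which puts panel 1 at least 7.45-fold higher. Panel, software version and library cannot be told apart in that pair, and panel 2 replicate 3 also comes from another capture. Whether each library could read Tshb equally well was not tested. Of the 215 genes with no UMI in panel 2 replicate 1, 111 were found in panel 1 of the same capture.

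Thrb, the receptor, was in 91 of 950 barcodes of the panel 1 library (9.58%, interval 7.78 to 11.6%) and in 19 of 87 barcodes of panel 2 replicate 3 (21.8%, interval 13.7 to 32.0%). It was in 0 of 44 and 0 of 43 barcodes of panel 2 replicates 1 and 2, which allows up to 6.82% and 6.98%. Over the 3 panel 2 captures its share was 7.28% ± 12.6 (SD, n = 3). The share and the level of Thrb stood in opposite order in the 2 libraries that had it. Its level was 1.42 per 1000 UMIs in the panel 1 library (150 UMIs, interval 1.20 to 1.66) and 0.247 per 1000 in panel 2 replicate 3 (27 UMIs, interval 0.163 to 0.359), 5.75 times lower (interval 3.80 to 9.01). With every barcode thinned to 35 UMIs the share was 4.88% of 644 barcodes and 0.849% of 87 barcodes, in the order of the levels. At the level of the panel 1 library, panel 2 replicate 2 would have held 113 Thrb UMIs and held 0, so Thrb was at least 37.6-fold higher in the panel 1 library. At the lower level of panel 2 replicate 3 it would have held 19.6, and panel 2 replicate 1 only 2.82, which is under the limit of 3 UMIs.

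Crym, the hormone-binding protein, was the most often detected of the 3 in the panel 1 library, in 373 of 950 barcodes (39.3%, interval 36.1 to 42.5%), at 7.97 per 1000 UMIs (843 UMIs, interval 7.44 to 8.53). Panel 2 replicate 2 had it in 2 of 43 barcodes (4.65%, interval 0.568 to 15.8%), with 1 UMI each. It was in 0 of 44 and 0 of 87 barcodes of panel 2 replicates 1 and 3, which allows up to 6.82% and 3.45%. The mean share over the panel 2 captures was 1.55% ± 2.69 (SD, n = 3). At the level of the panel 1 library, panel 2 replicates 1, 2 and 3 would have held 91.0, 634 and 872 Crym UMIs. The panel 1 library was thus at least 30.3-fold higher than panel 2 of its own capture, 317-fold higher than panel 2 replicate 2 (counting interval 87.5 to 2622, from 2 UMIs) and at least 291-fold higher than panel 2 replicate 3. The 21 barcodes left out of panel 2 replicate 2, because they also stand in a table of replicate 3, had Crym in 13 and neither Tshb nor Thrb, so the low share in that library holds for its own 43 barcodes. Fewer cells with a gene and less RNA per cell cannot be told apart in these library sums. For all 3 genes, each fold between the panel 1 library and a panel 2 library also spans different primer panels and software versions (1.3 and 1.5). Panel 2 replicates 2 and 3 come from other captures as well. The parts of panel, software and capture in these folds cannot be told apart from a difference in RNA.

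**Figure D1:**
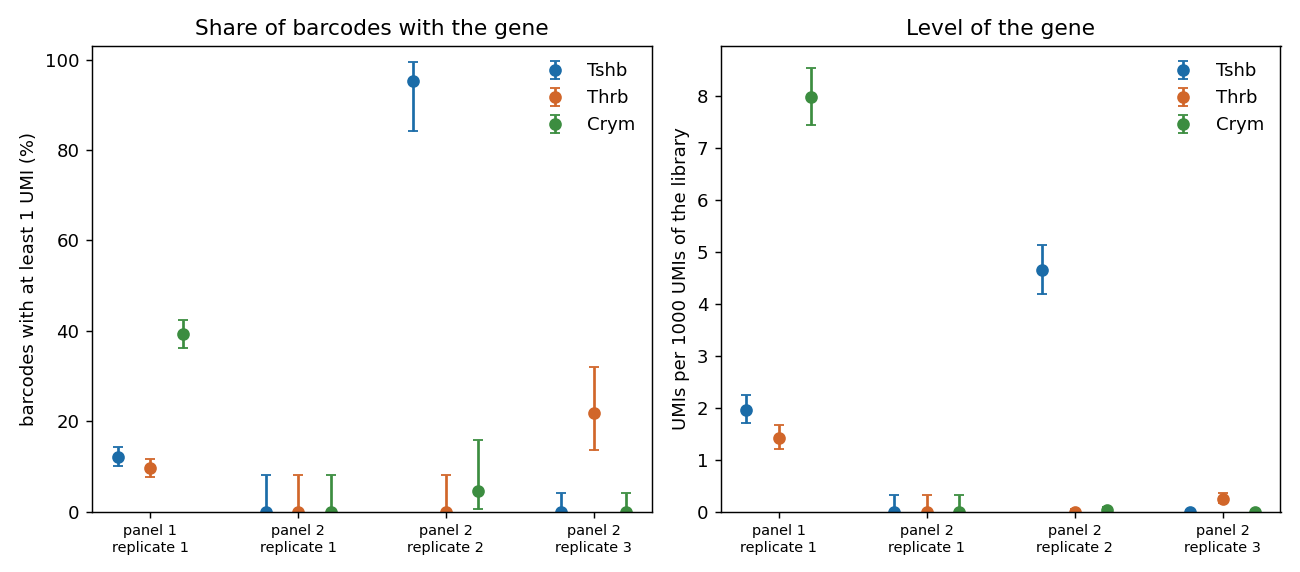
Share of barcodes with at least 1 UMI (left, percent) and level in UMIs per 1000 UMIs (right) of Tshb, Thrb and Crym in the 4 libraries. Points are library values and bars are 95% Clopper-Pearson (left) or exact Poisson (right) intervals; Tshb stands at 95.3% in panel 2 replicate 2 and Crym at 39.3% in the panel 1 library, and panel 2 replicate 1 is at 0 for all 3 genes.

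By rank, Tshb was the 81st most often detected of 265 genes in the panel 1 library and the 53rd in panel 2 replicate 2. Thrb ranked 93rd in the panel 1 library and 96th in panel 2 replicate 3. Crym ranked 41st in the panel 1 library. Being missing from a panel 2 library was common to most genes. In panel 2 replicate 1, 215 of the 265 genes had no UMI, 111 of them genes that panel 1 of the same capture detected. Panel 2 replicates 2 and 3 had no UMI of 172 and 146 of the 265 genes. Of all 265 genes, 34 were found in all 3 panel 2 libraries, 57 in 2, 46 in exactly 1 and 128 in none. Tshb, Thrb and Crym were each among the 46 genes found in exactly 1 panel 2 library.

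The 5 genes closest to each member over the 4 libraries were listed by the mean absolute difference in share from the member. Any gene has 5 closest genes, and no background distance was computed. For Tshb these were Nme5 (2.05 percentage points), Fgfr2 (3.50), Ppp1r12b (3.61), Tbx19 (4.19) and Snx12 (6.21). Fgfr2 encodes a fibroblast growth factor receptor, and Tbx19 a transcription factor of pituitary corticotropes. Nme5 was in 7.37% of barcodes of the panel 1 library and in 0%, 97.7% and 1.15% of panel 2 replicates 1, 2 and 3. Ppp1r12b, Tbx19 and Tshb were the 3 genes found in at least 90% of barcodes of panel 2 replicate 2 and in none of panel 2 replicates 1 and 3, and Ppp1r12b and Tbx19 were also absent from the panel 1 library. For Thrb the closest genes were Fabp7 (0.342 percentage points), Klhl1 (2.23), Irs1 (2.35), Adra2a (2.67) and Comp (2.68). Fabp7, a fatty acid-binding protein of radial glia and astrocytes, was in 10.9% of barcodes of the panel 1 library and in 21.8% of panel 2 replicate 3, and in no barcode of the other libraries. For Crym they were Dcdc2a (1.42), Asic2 (4.11), Sox2 (4.35), Slc6a11 (4.58) and Mustn1 (5.19). Sox2, a transcription factor of neural stem cells and glia, was in 40.5% of barcodes of the panel 1 library and in 11.5% of panel 2 replicate 3, where Crym had no UMI. Other listed genes also parted from their member in 1 library. Snx12 was in 17.2% of barcodes of panel 2 replicate 3, where Tshb had no UMI. Comp had no UMI in the panel 1 library, where Thrb was in 9.58% of barcodes. With 4 points that share their depth and panel, this likeness is a description.

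Most detections were of 1 UMI in the panel 1 library. Of the barcodes with Tshb, 87 of 115 had 1 UMI, 18 had 2 and 10 had 3 or more. Of those with Thrb, 77 of 91 had 1 UMI, 8 had 2 and 6 had 3 or more, and for Crym the numbers were 263, 55 and 55 of 373. Barcodes with a gene were also deeper, with median totals of 140, 122 and 98 UMIs for Tshb, Thrb and Crym against 46, 48 and 39 UMIs without it. In the 5 equal groups of 190 barcodes ordered by depth, the share with Tshb went from 1.58% at 20 to 28 UMIs to 30.0% at 144 to 3838 UMIs. The share with Thrb went from 0.526% to 22.1% and that with Crym from 16.8% to 73.7% over the same groups. The levels of the 3 genes in these groups rest in part on single barcodes. Tshb stood at 0.681, 1.41, 2.15, 1.45 and 2.21 UMIs per 1000 from the shallowest to the deepest group, Thrb at 1.82, 1.72, 1.84, 1.07 and 1.40, and Crym at 7.49, 6.88, 7.88, 7.14 and 8.35. The lowest Tshb value rests on 3 barcodes, and the Thrb value of the same group on 1 barcode with 8 Thrb UMIs of 24. The deepest group includes the barcodes with the most UMIs of each gene, 55 of Tshb, 31 of Thrb and 86 of Crym. No course with depth is therefore read from these levels.

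**Figure D2:**
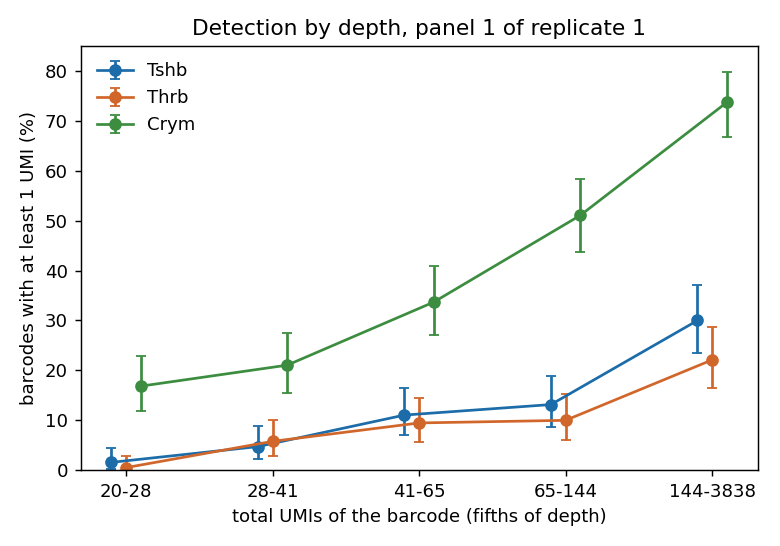
Share of barcodes with at least 1 UMI (percent) of each gene in 5 groups of 190 barcodes of the panel 1 library, ordered by total UMIs. Points are shares and bars 95% Clopper-Pearson intervals; the share with Crym is 16.8% in the shallowest group and 73.7% in the deepest.

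The detections were set beside what an even spread over all barcodes would give. Had each barcode of the panel 1 library held the same fraction of Tshb, 16.0% of barcodes would have had at least 1 UMI by a Poisson count, against the 12.1% observed. Leaving out the 1 barcode with the most Tshb, the expected share was 12.5% and the observed share 12.01%. For Thrb without its highest barcode the 2 shares were 10.2% and 9.48%, and for Crym 39.996% and 39.2%. In panel 2 replicate 2, without its highest barcode, 98.2% of barcodes were expected to have Tshb and 95.2% had it. Panel 2 replicate 3 would have had Thrb in 22.8% of barcodes, again without the highest, and had it in 20.9%. With all barcodes of the panel 1 library kept, Crym went further from an even spread at counts above 1. It had at least 1 UMI in 373 barcodes against 403 expected. At least 2 were in 110 against 170, and at least 3 in 55 against 83.3. Tshb came closer to it instead, with 115 barcodes against 152 expected, then 28 against 31.5 and 10 against 10.5. For Thrb, 91 stood against 117, 14 against 20.3 and 6 against 6.34. All these expectations include the highest barcode of each gene. Over all 43 barcodes of panel 2 replicate 2, Tshb UMIs had a chi-square of 18.4 per degree of freedom around an even fraction. That value includes the barcode with 92 Tshb UMIs, which weighs heavily in it, and was not computed without that barcode. How far free RNA contributes to these counts was not tested.

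Single barcodes stood far out. In the panel 1 library, 1 barcode of 454 UMIs held 55 Tshb UMIs, 26.6% of all Tshb UMIs of the library, and the next barcode held 4. Tshb was the second most abundant gene in that barcode at 121 per 1000 UMIs, against 1.44 per 1000 in the rest of the library. Its other leading genes were Mt2, a metallothionein, with 202 UMIs and Hdc, the histamine-synthesising enzyme, with 20 UMIs. Hdc stood at 44.1 per 1000 there and at 1.24 per 1000 in the other barcodes. The barcode had no UMI of Thrb, Crym, Nes or Frzb.

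A like barcode was found in panel 2 replicate 2. It held 92 Tshb UMIs of 2041, or 45.1 per 1000 against 3.57 per 1000 in the other 42 barcodes, and 24.9% of the library's Tshb. Timeless, a circadian-clock related gene taken as a pars tuberalis marker, was its second most abundant gene with 241 UMIs, 118 per 1000 against 6.48 per 1000 in the rest, and that barcode held 32.4% of the library's Timeless. Mt2 led here too, with 298 UMIs. In the panel 1 barcode above, Timeless had 3 UMIs, 6.61 per 1000 against 2.41 per 1000 in the rest. The 2 barcodes are the highest of each library by Tshb, chosen after their values were seen.

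Tshb counts in panel 2 replicate 2 also went with depth. Over its 43 barcodes the Tshb count ran from 0 to 92 UMIs, and no barcode had exactly 1. Per 1000 UMIs the barcodes ran from 0 over a median of 3.36 to 45.1, and Tshb UMIs and total UMIs had a Spearman rho of 0.668, a description over barcodes of 1 library. The deepest barcode, with 11434 UMIs, held 52 Tshb UMIs, or 4.55 per 1000, near the library's level. The 2 barcodes without Tshb had 600 UMIs, the fewest in the library, and 1739 UMIs, against a median of 1352 UMIs in those with it.

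Thrb and Crym met in 1 of the leading barcodes of the panel 1 library. The barcode with the most Thrb had 31 Thrb UMIs of 987, 20.7% of the library's Thrb, and also 55 Crym UMIs, the third highest Crym count. Gpr50, an orphan receptor of tanycytes, had 43 UMIs in it, or 43.6 per 1000 against 13.5 per 1000 in the rest. Of the other tanycyte genes, Vim stood at 12.2 against 11.8 per 1000, Nes at 2.03 against 4.14, and Frzb had no UMI there against 2.54 per 1000. The second highest Thrb count, 8 UMIs, was in a barcode of only 24 UMIs in all. In panel 2 replicate 3 no barcode had more than 4 Thrb UMIs. There, 13 of the 19 barcodes with Thrb had 1 UMI, and the median depth was 1269 UMIs with Thrb and 1039 UMIs without.

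The highest Crym counts were in 3 barcodes of the panel 1 library, with 86, 76 and 55 UMIs, while the next had 21. The first, of 1061 UMIs, held 61 Gpr50, 19 Vim, 14 Frzb and 9 Nes UMIs, all from the tanycyte list. Its Gpr50 stood at 57.5 per 1000 against 13.4 per 1000 in the rest of the library. The second, of 987 UMIs, held 49 Frzb UMIs, 49.6 per 1000 against 2.07 per 1000 in the rest, and 25 Vim UMIs, 25.3 against 11.6 per 1000, while its 9 Gpr50 UMIs stood below the rest at 9.12 against 13.8 per 1000. Tshb had 1, 3 and 0 UMIs in the 3 barcodes. Leaving out the highest barcode lowered the level of Crym in that library from 7.97 to 7.23 per 1000.

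**Figure D3:**
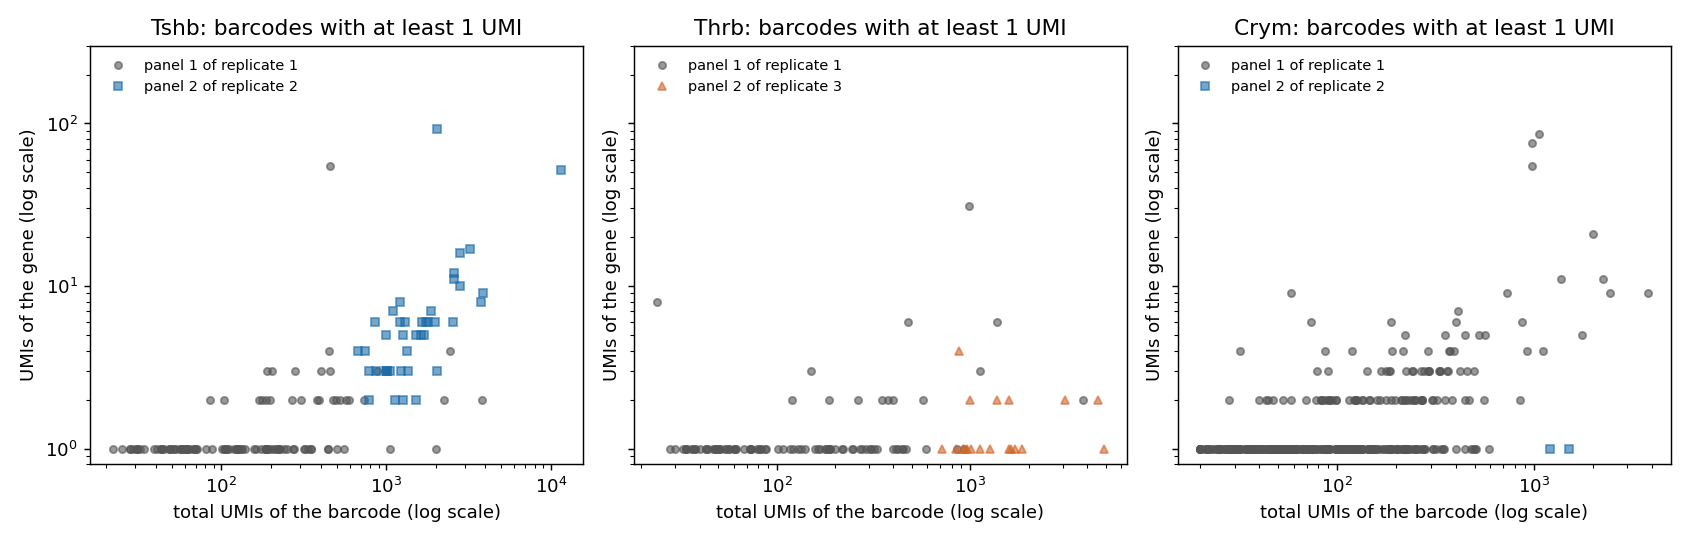
UMIs of Tshb, Thrb and Crym in each barcode with at least 1 UMI of the gene (vertical, log scale) against the barcode's total UMIs (horizontal, log scale), for the libraries in which the gene was found. Each point is a barcode; the barcodes with 55 and 92 Tshb UMIs, 31 Thrb UMIs, and 86, 76 and 55 Crym UMIs stand above the others of like depth.

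Co-detection of the 3 genes in the panel 1 library had ratios above 1 at full depth, and with depth made equal the intervals of all 3 pairs were wide and held 1. At full depth 18 barcodes had Tshb and Thrb against 11.0 expected from the product of the shares, 74 had Tshb and Crym against 45.2, and 55 had Thrb and Crym against 35.7. The ratios were 1.63, 1.64 and 1.54. Within the 5 depth groups the expected numbers rose to 17.6, 64.2 and 49.2 barcodes and the ratios were 1.02, 1.15 and 1.12. With barcodes thinned to 35 UMIs they were 1.39 for Tshb and Thrb (counting interval 0.139 to 4.13), 1.01 for Tshb and Crym (0.445 to 2.01) and 1.25 for Thrb and Crym (0.601 to 2.47). At 100 UMIs, in 273 barcodes, the ratio of Tshb and Thrb was 0.591, on the other side of 1, so no direction can be given for this pair. At 35 UMIs the observed value for it stood for 2.42 of 644 barcodes.

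**Figure D4:**
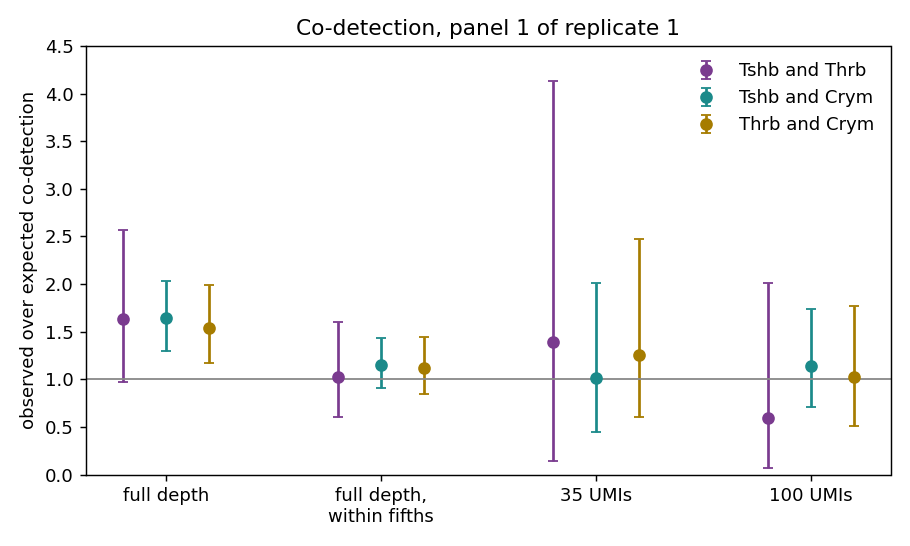
Observed over expected share of barcodes with both genes of a pair in the panel 1 library (vertical; the line marks 1) at full depth, within 5 depth groups, and thinned to 35 or 100 UMIs. Points are ratios and bars 95% counting intervals of the observed number; the ratios lie between 1.54 and 1.64 at full depth and between 1.02 and 1.15 within depth groups.

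The same measure for other genes gives the frame for these ratios. Over 110 genes found in at least 5% of barcodes of the panel 1 library, the ratio with Tshb at 35 UMIs had a median of 1.03, with a middle range from 0.674 to 1.42 between the 10th and 90th percentiles. Thrb ranked 13th and Crym 58th among the 110 for Tshb. For Crym the median was 1.03 and the range 0.859 to 1.21, with Thrb 9th and Tshb 64th. Frzb and Gpr50 of the tanycyte list had ratios of 1.43 (counting interval 0.821 to 2.39) and 1.18 (0.903 to 1.49) with Crym, while Vim, Nes and Slco1c1 had 1.06, 0.957 and 1.004. In full, 505 of 950 barcodes had none of the 3 genes and 13 had all 3, and those 13 had a median of 352 UMIs against 36 UMIs in the 505. In panel 2 replicate 2, both barcodes with Crym also had Tshb, with 5 and 6 UMIs, against 1.91 barcodes expected.

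Which other genes went with Tshb was examined in the panel 1 library, the only library with at least 20 barcodes with and 20 without it. The other genes of each barcode were thinned to 35 UMIs, which left 105 barcodes with Tshb and 539 without. Of 88 genes present in at least 5% of either class, 3 were at least 1.5-fold more often found with Tshb, or 3.41%, and 3 were at least 1.5-fold less often found, also 3.41%. The median ratio over the 88 genes was 1.01. The highest was Stra6, the receptor for retinol-binding protein, in 9.28% of barcodes with and 5.27% without Tshb (1.76-fold). Gabra3, a GABA receptor subunit, followed at 5.71% against 3.37% (1.69-fold), and Cox6a2, a subunit of cytochrome c oxidase, at 7.18% against 4.37% (1.64-fold). Enkur (1.47), Camk2n1 (1.45), an inhibitor of the kinase CaMKII, and Hdc (1.45) came next. The lowest were Cxcl16, a chemokine, at 0.658, Rspo3, an activator of Wnt signalling, at 0.603 and Unc13c, a synaptic vesicle priming protein, at 0.563.

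These ratios moved with the depth chosen. At 100 UMIs, in 73 and 200 barcodes, Gabra3 was at 2.68, Camk2n1 at 1.52 and Cox6a2 at 1.46, while Stra6 stood at 1.21 and Hdc stood at 0.828. Of the 3 genes, 1 was still at least 1.5-fold more often found at 100 UMIs, Gabra3. The barcode with the second highest Tshb count, 4 UMIs of 449, held 35 Gabra3 and 47 Gpr50 UMIs. With no thinning 98 of 126 genes passed the same fold, 77.8%, beside median depths of 140 and 46 UMIs with and without Tshb.

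For Thrb, 84 barcodes with and 560 without it remained at 35 UMIs. Of 89 genes, 5 were at least 1.5-fold more often found with Thrb, or 5.62%, and 3 were at least 1.5-fold less often found, or 3.37%, with a median ratio of 1.03. The 5 were Nme5 (5.04% against 2.32%, 2.17-fold), Ugt8a, the enzyme that makes galactocerebroside for myelin (9.50% against 4.83%, 1.97-fold), Morn4 (1.77-fold), Plekhg5 (1.64-fold) and Bmp4, a secreted growth factor (1.59-fold). Slc6a11, a GABA transporter of astrocytes, was next at 1.499, just under the threshold. Adrb1, the beta-1 adrenergic receptor, stood at 0.635, Bhlhe41, a clock-related repressor, at 0.610, and Commd9 at 0.570. At 100 UMIs Nme5 was at 1.82 and the only one of the 5 still past the fold, while Ugt8a was at 1.15, Bmp4 at 1.06 and Bhlhe41 at 0.993. In panel 2 replicate 3 Thrb was in 19 barcodes, under the minimum of 20, so no such comparison was made there.

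**Figure D5:**
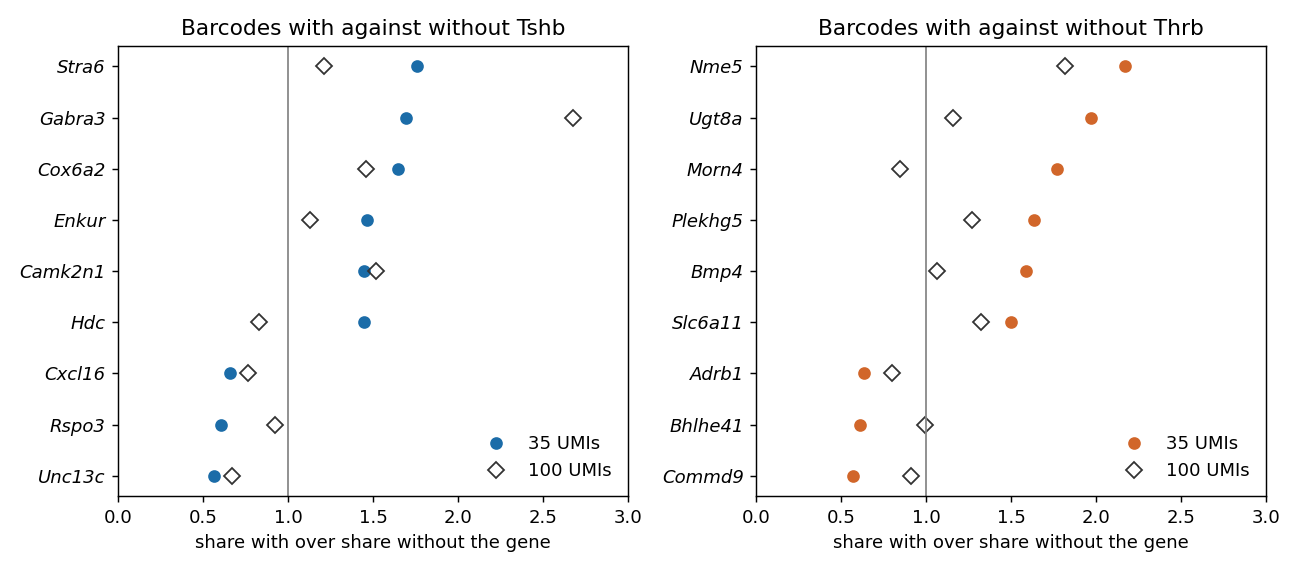
Share of barcodes with a gene among those with Tshb (left) or Thrb (right) over the share among those without, in the panel 1 library, for the 6 highest and 3 lowest genes. Filled points are at 35 UMIs and open diamonds at 100 UMIs, with the line at 1; Gabra3 is at 1.69 and 2.68 with Tshb, and Hdc lies on both sides of 1.

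Marker lists of cell types gave ratios near 1 for most genes. Of the pars tuberalis list, 3 of 9 genes were measured: Tshb, Timeless and Cyp2f2. Cyp2f2 had no UMI in any of the 4 libraries, and at 35 UMIs Timeless was in 7.61% of barcodes with and 7.58% without Tshb. Of the tanycyte list 6 of 10 were measured, and 0 of the 5 that could be compared passed 1.5-fold with Tshb, with ratios from 1.02 to 1.27, or with Thrb, from 0.834 to 1.11. The summed level of the 6 was 49.8 per 1000 UMIs with Tshb and 35.8 without. Leaving out the 4 barcodes with the most Crym, 3 of them with Tshb, gave 34.9 and 34.7. Crym is itself in the list, so this choice favours a lower sum with Tshb and does not show that the levels are equal. With and without Thrb the summed level was 39.9 and 40.3 per 1000. The astrocyte, oligodendrocyte, precursor, endothelial, mural, myeloid, fibroblast, ependymal and neuronal lists had no gene past 1.5-fold with Tshb, for which no neuronal gene was frequent enough to compare, and Ugt8a alone with Thrb. Summed levels, which are not at equal depth, also differed for other lists and in both directions. Per 1000 UMIs, astrocyte genes stood at 25.3 with and 18.4 without Tshb, and endothelial genes at 95.8 and 80.3. Oligodendrocyte genes stood at 53.5 and 69.8, and ependymal genes at 32.0 and 46.2. With and without Thrb, astrocyte genes stood at 28.7 and 18.3 and oligodendrocyte genes at 51.3 and 68.4. No gene of the pars distalis list was measured, so hormone genes of the main pituitary give no check here, and the part of pituitary cells in the Tshb counts was not tested.

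Of 33 other genes of thyroid hormone production, transport and action, 6 were measured in the larger set. Slco1c1, the thyroxine transporter of brain capillaries and astrocytes, was in 820 of 950 barcodes of the panel 1 library (86.3%, 35.3 per 1000 UMIs) and in no barcode of the 3 panel 2 libraries, which allows up to 6.82%, 6.98% and 3.45%. Slco1a4, a related organic anion transporter of the same capillaries, was in 670 of 950 barcodes of the panel 1 library (70.5%) and in 18 of 87 of panel 2 replicate 3 (20.7%). Rxrg, a retinoid X receptor and so a heterodimer partner of thyroid hormone receptors, was in 0 of 950 barcodes of the panel 1 library, which allows up to 0.316%. It was in 33 of 43 barcodes of panel 2 replicate 2 (76.7%, 200 UMIs), the library without Thrb, and in 1 of 87 of panel 2 replicate 3, the panel 2 library with Thrb. Trim28, a transcriptional corepressor, was in 83.4% of barcodes of the panel 1 library and in every barcode of the 3 panel 2 libraries, at 29.8, 44.2, 47.4 and 57.0 per 1000 UMIs in the order of the libraries.

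Trhde, the enzyme that degrades thyrotropin-releasing hormone, had 1 UMI in the panel 1 library and none elsewhere, and Trhr, the receptor for that hormone, had none in any library. At 35 UMIs the 3 of the 6 genes that could be compared in the panel 1 library, Slco1c1, Slco1a4 and Trim28, were found about as often with as without the members. Their ratios ran from 0.954 to 0.965 with Tshb and from 1.06 to 1.12 with Thrb, against medians of 1.01 and 1.03 over all genes compared.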

How the data were processed

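Single-cell RNA was captured on the BD Rhapsody system and read with custom primer panels, per the labels' protocols. What the authors deposited are raw UMI counts for every barcode and amplicon; per the file headers they come from version 1.3 (the panel 1 library) or 1.5 (all others) of BD's targeted Rhapsody software, with error-corrected molecular identifiers. The submitters' processing notes name build mm9. How reads were aligned and cells called is not given in the sources used here.

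Amplicons were summed by symbol over the 290 columns of the larger set (291 in panel 2 replicate 3), and the 21 barcodes of the panel 2 table of replicate 2 that also stand in a table of replicate 3 were left out. The tables of both panels of replicate 3 share 189 cell indices, and only the panel 2 table was used. Doublets were not called; leaving out the 5% deepest barcodes was an alternative. Thinning used the exact hypergeometric expectation at 35 UMIs, checked against random draws from barcodes of the panel 1 library. The comparison of genes with and without a member and the co-detection ratio were checked on simulated data. Shares have Clopper-Pearson intervals, sums exact Poisson intervals, and a count of 0 a limit of 3 counts; all cover counting error only. No test was run, since barcodes are not replicates and panel 1 stands alone. Values were computed in Python 3.11.15 with numpy 2.4.6, pandas 2.3.3 and scipy 1.17.1. Named genes were the members, the measured thyroid genes, the 6 highest and 3 lowest ratios beside Tshb or Thrb, and the 5 closest genes over libraries; the leading barcodes' genes were chosen after their values were seen. The members and lists were chosen with earlier results of these data known.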

Additional observations from a re-analysis of the deposited data

Results flagged for a closer look

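Signals of the 3 genes were also present in barcodes outside the comparisons. The 21 barcodes that stand in tables of both replicate 2 and replicate 3 had Crym in 13 (61.9%, Clopper-Pearson interval 38.4 to 81.9%). They held 86 Crym UMIs, 67 of them in 1 barcode of 16798 UMIs. None of the 21 had Tshb or Thrb, and 12 had Slco1c1. The panel 1 library had 605 barcodes under the minimum of 20 UMIs and 5 genes, with a median of 11 UMIs. Tshb was in 1.65% of them, Thrb in 1.49% and Crym in 7.60%. Their levels there were 1.48, 1.33 and 6.80 UMIs per 1000, from only 10, 9 and 46 UMIs. The kept barcodes stood at 1.96, 1.42 and 7.97 per 1000, and at 1.44, 1.14 and 7.23 without the highest barcode of each gene. Groups of 3 captures were not screened for single outlying samples.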

How the results depend on the processing

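The shares in the panel 1 library moved with depth and with the barcodes counted. For Tshb the share was 8.04% of all barcodes, 19.6% at a minimum of 50 UMIs and 10 genes, 9.98% without the 5% deepest barcodes, 5.54% at 35 UMIs and 2.95% where 2 UMIs were needed. For Thrb it was 6.43%, 14.7%, 4.88% and 1.47% with no minimum, the higher minimum, 35 UMIs and 2 UMIs, and for Crym 26.9%, 56.6%, 21.8% and 11.6%. The mean over panel 2 ranged on leaving out a capture from 0 to 47.7% for Tshb, from 0 to 10.9% for Thrb and from 0 to 2.33% for Crym, with the 0 reached without replicate 2 for Tshb and Crym and without replicate 3 for Thrb. Keeping the 21 shared barcodes gave 7.81% for Crym. Genes at least 1.5-fold more often found with Tshb were 98 of 126 compared at full depth (77.8%). They were 7 of 113 (6.19%) at 100 UMIs and at a minimum share of 2%. Without the deepest barcodes and with 2 UMIs of Tshb they were 7 of 89 (7.87%). With Thrb they were 91 of 125 (72.8%) at full depth, 12 of 116 (10.3%) at 100 UMIs and 12 of 113 (10.6%) at 2%. They were 12 of 91 (13.2%) with 2 UMIs of Thrb and 10 of 89 (11.2%) without the deepest barcodes. Of the 5 genes with Thrb, all were shared at full depth and at 2%, and 4 without the deepest barcodes. At 100 UMIs 1 was shared, and with 2 UMIs 2 were, the latter on 13 barcodes with Thrb. Without the barcode with the most UMIs of the gene, an alternative chosen after seeing the data, levels in the panel 1 library were 1.44, 1.14 and 7.23 per 1000 for Tshb, Thrb and Crym, and 3.57 per 1000 for Tshb in panel 2 replicate 2. Leaving out the 4 barcodes with the most Crym, also chosen after seeing the data, put the summed tanycyte list beside Tshb at 34.9 per 1000 in place of 49.8. Crym is part of that list, so a lower sum is favoured by the choice. Co-detection ratios stayed within their wide counting intervals, and that of Tshb and Thrb fell below 1 at 100 UMIs (0.591) and at the higher minimum (0.998). No paired analysis was possible because no result comes from a test and only 1 capture has both panels for this gene set.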
